A study of Mus musculus with 6 samples.

Results

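The transition from the germinal vesicle (GV) oocyte to the 4-cell embryo was described in the YAP-null samples of a mouse series, which are 3 of its 6 RNA sequencing libraries. The YAP-null 4-cell library was compared with the mean of the 2 YAP-null GV libraries. All libraries came from females of ICR background aged 21 to 23 days, treated with PMSG and hCG, and each held 60 pooled oocytes or embryos. The YAP-null libraries are labelled as YAP-/- oocytes or embryos, deleted for Yap1, from YAP-/- females. The labels do not name the tool or promoter of the deletion, the cells of the females that carried it, or the genotype of the fathers. The wild-type libraries, 2 of GV oocytes and 1 of 4-cell embryos, were used only to show where the YAP-null transition differed. For both 4-cell libraries the source label names GV oocytes, while title and stage name the 4-cell stage, and the latter was followed. Nothing in the labels says that the GV libraries of a genotype came from separate animals, so the spread between them may be technical, and the 4-cell stage has no replicate.

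A fully grown GV oocyte no longer transcribes its genome and lives on stored maternal messages, held in masked and short-tailed form. During maturation and the first cleavages these messages are deadenylated and destroyed, while the genome of the embryo is switched on, in the mouse mainly at the 2-cell stage. YAP, encoded by Yap1, is a transcriptional coactivator that Hippo kinases restrain, and it works through the TEAD DNA-binding proteins. The title of the series names oocyte YAP as an activator of this early embryonic transcription.

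Expression is given as deposited FPKM (fragments scaled to transcript length and to the number mapped), and differences as log2(FPKM + 1), 4-cell minus GV. FPKM is relative to each library, and no amount of RNA per oocyte or embryo was used. Levels and percents left are therefore those of FPKM and not of message molecules per oocyte or embryo. Read totals are not known. The relative depths estimated from the deposited bounds were 0.454 and 0.552 in the YAP-null GV libraries with the YAP-null 4-cell library at 1, and 0.520 to 1.24 in the wild-type libraries. Between 9985 and 10824 genes reached 1 FPKM per library, and the small RNA gene Mir762 alone held 19.1% of the FPKM sum of YAP-null GV library 1. Across genes the YAP-null GV libraries correlated at r = 0.898, less than each did with the wild-type GV library of the same number (0.984 and 0.985, across 11452 genes, which are not independent replicates). Yap1 (mm9, chromosome 9, 7932001 to 8004596) was at 10.8 and 10.04 FPKM in the YAP-null GV libraries with 248 and 154 FPKM in wild-type GV oocytes. The 4-cell libraries had 33.3 FPKM (YAP-null) and 89.7 FPKM (wild type), so Yap1 RNA was higher in the YAP-null embryos than in YAP-null oocytes (1.59 ± 0.43 SE, limma adjusted p = 0.14). Of the embryonic-genome markers, Eif2s3y and Xist were at 2.11 and 1.03 FPKM at the YAP-null 4-cell stage and Ddx3y at 0. The 5 of them summed to 0 and 0.0851 FPKM in the GV libraries and to 3.58 FPKM at the 4-cell stage. Of 12 granulosa and cumulus markers, 8 were at 0 in the YAP-null 4-cell library, where Gja1, a gap junction gene that embryos also use, made up 32.8 of their summed 34.7 FPKM. In the YAP-null GV libraries 3 and 1 of these markers were at 0. They summed to 34.8 and 30.9 FPKM there, with Gja1 at 2.67 and 2.01 FPKM. The 6 blood markers summed to 0.185 and 0.290 FPKM in the YAP-null GV libraries. At the 4-cell stage they summed to 25.9 FPKM (YAP-null) and 68.5 FPKM (wild type). The part of other cells in these values was not tested.

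Between the YAP-null oocyte and the 4-cell embryo, the messages of the egg gave way to those of the embryo across much of the transcriptome. Of 11392 genes whose mean over the 3 libraries reached 1 FPKM, 1970 (17.3%) were at least 4-fold higher at the 4-cell stage and above both GV libraries, and 1404 (12.3%) were at least 4-fold lower and below both. At 2-fold the counts were 3513 (30.8%) and 3333 (29.3%). Against GV library 1 alone 2236 genes (19.6%) were at least 4-fold higher and 1481 (13%) lower, and against GV library 2 alone 1895 (16.6%) and 1590 (14%). These counts by size are a description with no test. The genes of the second group held 22.3% and 25.4% of all FPKM in the GV libraries and 2.82% at the 4-cell stage, and those of the first group went from 2.34% and 3.50% to 30.4%. A further 980 genes (8.60%) lay within 1.5-fold of both GV libraries and are called kept. The word refers to the level alone, since FPKM does not tell stored RNA from RNA that the embryo made. The median of all 11392 differences was -0.00266, or 0.11 against GV library 1 and -0.12 against GV library 2. The GV libraries themselves were at least 4-fold apart for 478 genes (4.20%) and at least 2-fold apart for 2801 (24.6%).

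With limma (limma-trend on the 3 libraries, two-sided, Benjamini-Hochberg adjusted p of 0.05), 571 genes passed (5.01% of those tested): 570 rose (5.0%) and 1 fell (0.00878%). At an unadjusted p of 0.05 there were 2205 higher and 1744 lower genes. The fit has 1 residual degree of freedom, from the GV pair, and assumes that the lone 4-cell library varies like the GV libraries. Nearly all genes that rose were at or near 0 in the oocyte: 562 of the 570 were under 1 FPKM in both GV libraries and 310 were listed at 0 in both. Without either GV library, with the wild-type libraries giving the spread, no gene passed the adjusted test (2131 higher and 1676 lower at an unadjusted p of 0.05 without GV library 1, and 2229 and 1738 without GV library 2). Rpl26, the 1 gene that fell, was at 86.7 and 67.7 FPKM in the GV libraries and 0.000796 FPKM at the 4-cell stage (-6.28 ± 0.46, adjusted p = 0.0469). Its gene model overlaps Gm15772, which was at 442 and 92.3 FPKM and then 508 FPKM, and the sum of both gave a difference of 0.80, in the opposite direction. In what follows, rose and fell are kept for genes past limma.

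**Figure D1:**
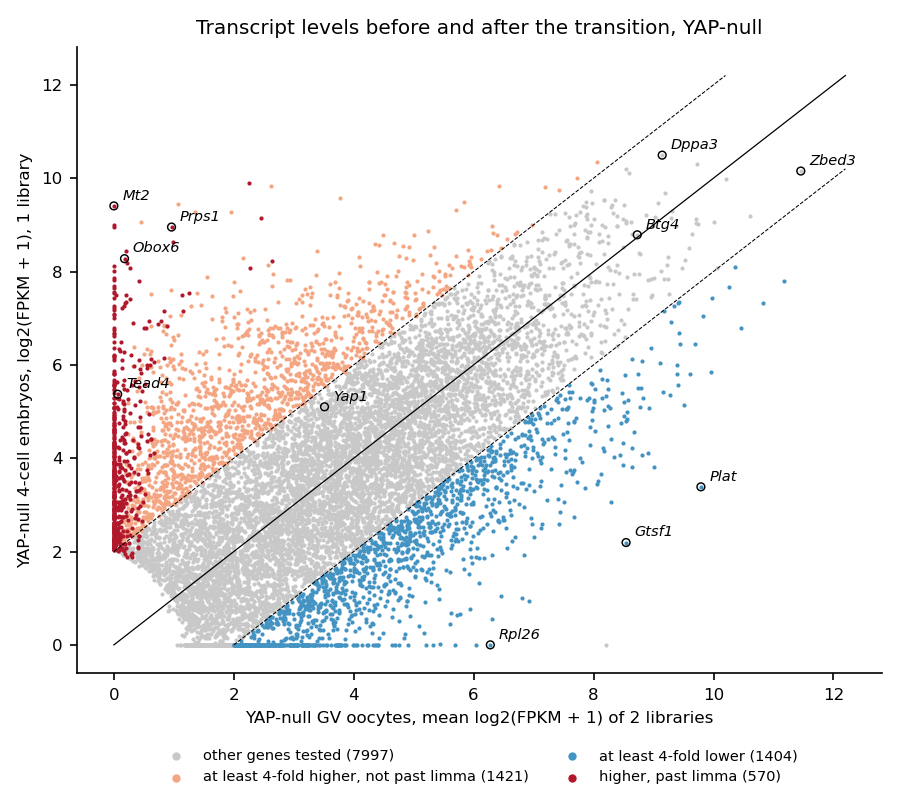
Each point is 1 of 11392 genes, with the mean log2(FPKM + 1) of the 2 YAP-null GV libraries across and the YAP-null 4-cell library up; the solid line marks equal levels and the dashed lines 4-fold differences. The 570 genes past limma (red) lie mostly at the left edge, where GV levels are near 0, while the 1404 genes at least 4-fold lower (blue) span low to high GV levels, with Plat, Gtsf1 and Rpl26 far below the line.

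Genes at the lowest oocyte levels included many with abundant embryonic transcripts. Among the 996 genes (8.74%) under 1 FPKM in both YAP-null GV libraries, 375 were at 10 FPKM or more at the 4-cell stage and 45 at 100 FPKM or more. With a mean of at least 1 FPKM required, such genes entered only through their 4-cell value. The largest rise was that of Mt2 (metallothionein 2, a metal-binding and stress-protective protein), listed at 0 in both GV libraries and at 677 FPKM at the 4-cell stage (9.41 ± 0.45 SE, adjusted p = 0.0314, the smallest value in the fit, which other genes share). Its neighbour in function Mt1 was at 3.44 and 0 FPKM in the GV libraries and 699 FPKM at the 4-cell stage, which did not pass (8.38, adjusted p = 0.0847). Obox6, an oocyte-specific homeobox family member that is used in the cleavage embryo, rose from 0.279 and 0 to 309 FPKM (adjusted p = 0.0348). Folr1, a folate receptor, rose from 0 in both GV libraries to 276 FPKM, and Prps1, which makes the ribose-phosphate donor of nucleotide synthesis, from 0.903 and 0.992 to 494 FPKM (adjusted p = 0.0314 and 0.0323). Transport and membrane genes in the same group were Tomm5 of the mitochondrial import pore, at 259 FPKM, and the small GTPase Rab20, at 268 FPKM. The lysosomal protease Ctsc was at 199 FPKM and Npl, a sialic acid lyase, at 207 FPKM. All 15 genes with the largest rises were at 1.05 FPKM or less in both YAP-null GV libraries, and the YAP-null 4-cell values, 199 to 677 FPKM, did not overlap them, as their choice by the largest difference fixes. In the wild-type 4-cell library the same 15 genes were at 139.8 to 992 FPKM. Of the 15, 12 were higher there than in the YAP-null one, and Cphx1, Gm11544 and Gm7102 were lower. No share of all genes was taken for this count. None of the 15 passed the test of the stage by genotype difference.

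**Figure D2:**
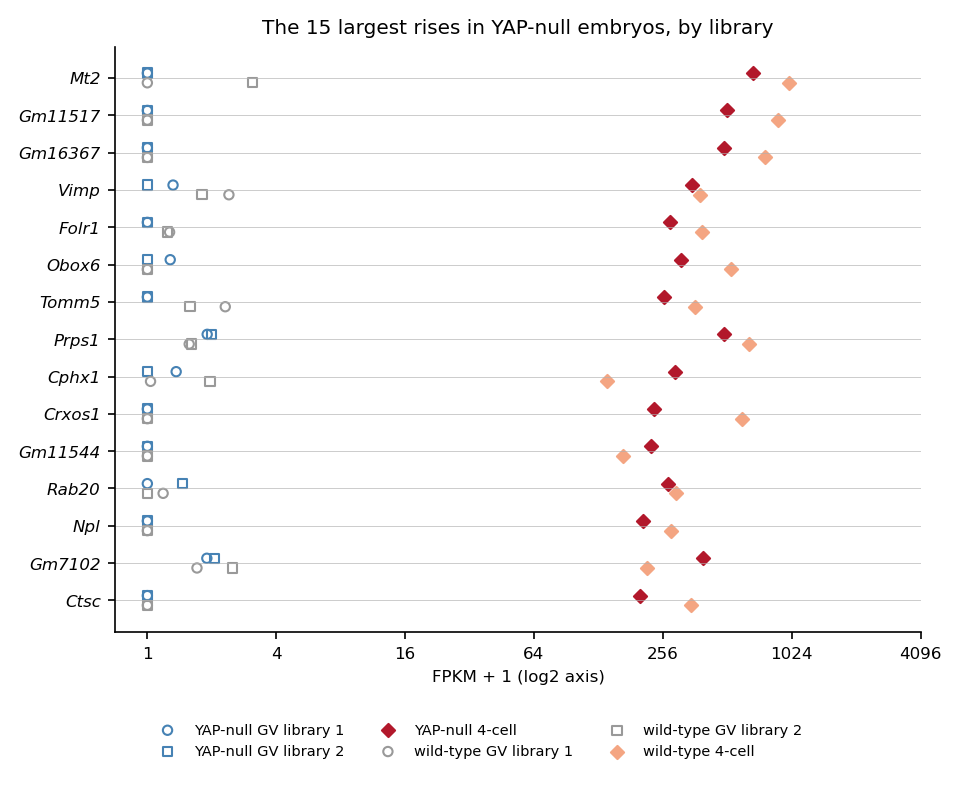
FPKM + 1 on a log2 axis for the 15 largest rises in YAP-null embryos, with open symbols for GV libraries and filled diamonds for 4-cell libraries of both genotypes. Every GV value is near the left edge and every 4-cell value, in either genotype, lies above 100 FPKM.

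Promoters of members that stand for the risen and the kept transcripts are shown from RefSeq (GRCm38.p6), as the 250 bases before the start of the gene, on the plus strand. For Mt2 (chr8:94172368-94172617), the gene with the largest rise, capitals mark matches on either strand to TGCNCNC. This is a loose form of the core of the metal response element, through which zinc and other metals induce metallothioneins. It takes any base at the fourth place, where the core has A or G. The loose form matched at 5 places, of which GGGAGCA (reverse strand) and TGCTCTC have T there. For Prps1 (chrX:140456353-140456602), which rose, and Btg4 (chr9:51115751-51116000), a maternal message that was kept, capitals mark the CCAAT box (CCAAT) and the GC box (GGGCGG) on either strand.
Mt2: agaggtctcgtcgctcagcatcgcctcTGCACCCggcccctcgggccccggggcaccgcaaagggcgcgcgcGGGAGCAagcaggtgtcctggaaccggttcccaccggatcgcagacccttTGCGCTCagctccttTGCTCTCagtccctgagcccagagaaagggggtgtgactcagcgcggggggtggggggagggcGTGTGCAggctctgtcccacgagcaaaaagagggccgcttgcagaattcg
Prps1: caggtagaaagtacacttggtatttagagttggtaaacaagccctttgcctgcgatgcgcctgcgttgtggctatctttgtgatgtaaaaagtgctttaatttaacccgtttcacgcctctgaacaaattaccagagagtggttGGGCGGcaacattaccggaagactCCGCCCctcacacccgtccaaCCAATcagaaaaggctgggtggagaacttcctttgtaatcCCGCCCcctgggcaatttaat
Btg4: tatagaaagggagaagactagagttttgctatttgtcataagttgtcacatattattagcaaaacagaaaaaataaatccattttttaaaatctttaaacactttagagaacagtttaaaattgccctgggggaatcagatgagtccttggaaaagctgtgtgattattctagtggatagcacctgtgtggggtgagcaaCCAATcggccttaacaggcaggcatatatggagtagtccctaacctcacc
The Prps1 window held 3 GC boxes and 1 CCAAT box, and the Btg4 window 1 CCAAT box and no GC box. The loose form of the metal response core was in 43.8% of all RefSeq promoter windows of this length and 52.3% of those of tested genes. Promoter windows could be matched for 400 of the 570 genes that rose, 1045 of the 1404 at least 4-fold lower, 747 of the 980 within 1.5-fold and 8531 of the 11392 tested. GGAATG, the core letters read by TEAD proteins, was in 13.2% of the windows of genes that rose, 10.7% of the lower, 8.43% of the kept and 10.2% of all tested genes. Genes and motifs were chosen after values were seen: 8 promoters were looked up, 4 had an entry, and Gtsf1, the fourth with one, held none of the 6 motifs searched. The Btg4 window also held 1 match to TGCNCNC, and no window shown held the TEAD core, the TATA box (TATAAA) or the homeodomain core (TAATTG). The TATA box was in 8.50% of the windows of genes that rose and 6.20% of those tested, the homeodomain core in 4.50% and 4.65%, and CCAAT in 39.0% and 37.4%. The GC box was in 46.5% of the windows of genes that rose, 58.6% of those at least 4-fold higher and 58.4% of those of all tested genes, and the TEAD core was in 11.6% of the windows of genes at least 4-fold higher.

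Genes of the 2-cell stage wave, which mark the first large burst of embryonic transcription, were still present in YAP-null 4-cell embryos. Of 28 such genes with an entry, 22 were tested: 14 rose (5.0% of all genes did) and 19 were at least 4-fold higher (17.3% of all), with a median of 3.16 against -0.00266 over all genes. Members near 0 in the oocyte entered the test only through their 4-cell value, so this count gives no support of its own. Tdpoz4 and Tdpoz5, of the TRAF- and BTB-domain family, were listed at 0 in both GV libraries and were at 89.4 and 97.8 FPKM at the 4-cell stage (adjusted p = 0.0314 for both). Zscan4a, a telomere-linked zinc finger gene, rose from 0.156 and 0.123 to 7.79 FPKM. Zscan4f was at 1.38 and 0.308 FPKM in the GV libraries and 20.1 FPKM at the 4-cell stage (3.58, adjusted p = 0.0867, not past the test). Zfp352 rose from 0 in both GV libraries to 17.1 FPKM. Arg2, an arginase, was the 1 member that was lower, at 209.6 and 126 FPKM in the GV libraries and 16.1 FPKM at the 4-cell stage. The wild-type median of these genes was 3.04, and the 6 Zscan4 genes were at 3.81 to 20.1 FPKM in YAP-null embryos, with 1.79 to 9.62 FPKM in wild-type ones.

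Cleavage-stage homeobox and Trim43 genes reached higher levels. Of 11 tested, 6 rose and 9 were at least 4-fold higher, against 5.0% and 17.3% of all genes, and members near 0 in the oocyte again entered only through their 4-cell value. The median was 7.21 in YAP-null and 6.63 in wild type, the latter being the value of Cphx1 alone, which in wild type is 7.45 once summed with its copy Cphx2. Gene by gene, the change was lower in YAP-null for 9 of the 11, with a median difference of -0.81. The share of all genes with a lower change was not taken. Trim43a and Trim43b were listed at 0 in both GV libraries and were at 189 and 184 FPKM at the 4-cell stage, against 394 and 384 FPKM in the wild-type library. Crxos1, a homeobox gene, reached 233 FPKM and 600.5 FPKM in wild type. Alppl2, an alkaline phosphatase of the preimplantation embryo, was at 7.22 and 3.56 FPKM in the GV libraries and 908 FPKM at the 4-cell stage (7.21 ± 0.62, adjusted p = 0.0549), and at 2094 FPKM in the wild-type 4-cell library. Klf17, a maternal transcription factor of this list, stayed near its oocyte level, at 322 and 148 FPKM in the GV libraries and 290.0 FPKM at the 4-cell stage.

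Among 18 tested pluripotency regulators, 4 rose, 11 were higher by 4-fold or more and none lower by as much. The shares of all genes were 5.0%, 17.3% and 12.3%. The median was 2.38, and 3.35 in wild type. Members near 0 in the oocyte entered the test only through their 4-cell value, so these counts give no support of their own. The 4 that rose were Klf5 and Tet1, at 48.6 and 8.82 FPKM, and the signalling genes Fgf4 and Tdgf1, at 9.70 and 6.48 FPKM. Klf2 was at 0.594 and 1.24 FPKM in the GV libraries and 69.5 FPKM at the 4-cell stage (adjusted p = 0.0605). Dppa4, a chromatin-bound factor of the early embryo, was at 5.97 and 11.4 FPKM in the GV libraries and 183 FPKM at the 4-cell stage (adjusted p = 0.0813). Nanog was at 0 and 0.215 FPKM in the GV libraries and 4.49 FPKM at the 4-cell stage (adjusted p = 0.0539). Pou5f1, which the oocyte stores, was at 283 and 161 FPKM in the GV libraries and 322 FPKM at the 4-cell stage, a difference of 0.59. All 4 genes that rose were lower in the YAP-null than in the wild-type 4-cell library, where Klf5 was at 106 and Tdgf1 at 41.8 FPKM. Genes of the later lineages were mixed, with 7 of 19 tested higher by 4-fold or more and 3 lower by as much. The shares of all genes were 17.3% and 12.3%, and here too members near 0 in the oocyte entered only through their 4-cell value. Krt18, a keratin of the outer cells, rose from 0 in both GV libraries to 4.43 FPKM. Gata6, a primitive endoderm factor, was at 0.324 and 0.0848 FPKM in the GV libraries and 5.03 FPKM at the 4-cell stage against 52.1 FPKM in the wild-type 4-cell library (stage by genotype difference -2.97, adjusted p = 0.262). Cldn4, a tight junction claudin, was at 22.6 and 24.1 FPKM in the GV libraries and 2.60 FPKM at the 4-cell stage; wild type had 35.9 and 24.8 FPKM and then 28.1 FPKM.

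Among the genes of growth, ribosome biogenesis stood higher at the 4-cell stage, and other groups were nearer to the values of all genes. All 34 tested genes of ribosome biogenesis and RNA polymerase I were above 0, and 22 of them were at least 4-fold higher, against 17.3% of all genes. Of these 34, 0 passed limma, beside 20 higher with an unadjusted p under 0.05 (2205 of all 11392 genes were). The largest were Rrs1, at 0.174 and 0.818 FPKM in the GV libraries and 79.5 FPKM at the 4-cell stage (5.79 ± 0.53, adjusted p = 0.0578), and Nop16, at 0.208 and 0.654 FPKM in the GV libraries and 74.7 FPKM at the 4-cell stage, both assembly factors of the large ribosomal subunit. Rrs1 and Nop16 entered the test only through their 4-cell value. Fbl, the methyltransferase of the nucleolus, was at 7.55 and 20.1 FPKM in the GV libraries and 249.7 FPKM at the 4-cell stage. The 74 cytosolic ribosomal proteins differed less: 69 were above 0, 7 were at least 4-fold higher, a smaller share than the 17.3% of all genes, and the median was 1.08, with 0.63 against GV library 1 and 1.55 against GV library 2. Their summed FPKM was 19899 and 11075 in the GV libraries, 29323 in the YAP-null and 55219 in the wild-type 4-cell library. Of 30 genes of nucleotide synthesis and one-carbon metabolism, 11 were at least 4-fold higher (17.3% of all genes were) and 2 at least 4-fold lower (12.3%). Their median was 0.78, and 1.71 in wild type. Of these 30, 2 rose, near the 5.0% of all genes. The first was Impdh2, which commits purines to guanine nucleotides, with 5.15 and 5.27 FPKM in the GV libraries and 299.6 FPKM at the 4-cell stage (adjusted p = 0.0466). The second was Pfas, of purine synthesis, at 5.54 FPKM from 0.264 and 0.290 (adjusted p = 0.039). Nme2, a nucleoside diphosphate kinase, was at 16.4 and 9.67 FPKM in the GV libraries and 757 FPKM at the 4-cell stage (adjusted p = 0.0611). Adss was at 324 and 209 FPKM in the GV libraries and 43.7 FPKM at the 4-cell stage. Splicing factors had a median of 0.88 over 38 genes, 9 of them at least 4-fold higher (17.3% of all genes were) and 10 below 0, with Srsf1 at 10.3 and 9.90 FPKM in the GV libraries and 117 FPKM at the 4-cell stage. The cyclin gene Ccne1 was at 4.57 and 1.86 FPKM in the GV libraries and 219 FPKM at the 4-cell stage, and 219 FPKM in wild type. The medians of the 31 proteasome subunits and the 16 glycolysis genes were 0.02 and 0.07, and that of 47 oxidative phosphorylation genes was -0.09. The first 2 changed sign with scaling or the choice of GV library.

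Maternal messages that are known to be cleared by this stage were lower in YAP-null embryos, by amounts that differed between gene families. In bulk RNA, fewer embryos that clear a message and less clearance per embryo cannot be told apart. Secreted factors, zona proteins and egg surface genes had the lowest median of the lists: 11 of 13 were at least 4-fold lower (12.3% of all genes were), with a median of -2.62. None of the 13 passed limma, beside 8 lower with an unadjusted p under 0.05 (1744 of all 11392 genes were). Gdf9, an oocyte growth factor of the TGF-beta family, was at 1996 and 2695 FPKM in the GV libraries and 220.2 FPKM at the 4-cell stage (-3.39 ± 0.85, adjusted p = 0.13). Its partner Bmp15 was at 368 and 1034 FPKM in the GV libraries and 39.7 FPKM at the 4-cell stage. Plat, the tissue plasminogen activator, was at 1531 and 511 FPKM in the GV libraries and 9.46 FPKM at the 4-cell stage (-6.40, adjusted p = 0.0864), the largest difference on this side. Among the zona genes, Zp3 was at 551 and 1849 FPKM in the GV libraries and 172 FPKM at the 4-cell stage. Cd9, which the egg needs for sperm fusion, was the 1 member near its GV level, at 97.0 and 65.3 FPKM in the GV libraries and 90.6 FPKM at the 4-cell stage.

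Of 25 maternal-effect genes, 11 were lower by 4-fold or more and 2 higher by as much, and of 15 storage and masking genes 6 and 1, against 12.3% and 17.3% of all genes. Zar1, which stores maternal messages, was at 750.2 and 1088 FPKM in the GV libraries and 130.4 FPKM at the 4-cell stage. Nlrp2 of the subcortical complex was at 128 and 118 FPKM in the GV libraries and 5.62 FPKM at the 4-cell stage (-4.23, adjusted p = 0.0606). Ooep was at 667 and 676 FPKM in the GV libraries and 63.2 FPKM at the 4-cell stage. For Nlrp5 the GV libraries were far apart, at 17.9 and 728 FPKM, and the 4-cell value of 72.3 FPKM lay between them. The polyadenylation regulator Cpeb1 was at 229 and 357 FPKM in the GV libraries and 17.5 FPKM at the 4-cell stage. The poly(A)-binding protein gene Pabpn1l was at 431 and 180.4 FPKM in the GV libraries and 11.6 FPKM at the 4-cell stage. The kinase Mos, which holds the egg in meiosis, was at 692 and 237 FPKM in the GV libraries and 22.6 FPKM at the 4-cell stage. The checkpoint gene Bub1b was at 506 and 393 FPKM in the GV libraries and 15.8 FPKM at the 4-cell stage (adjusted p = 0.0653). Of the DNA methylation genes, Uhrf1 was at 308 and 316 FPKM in the GV libraries and 20.3 FPKM at the 4-cell stage. Dnmt1 was at 198 and 1041 FPKM in the GV libraries and 38.4 FPKM at the 4-cell stage. The oocyte linker histone H1foo was at 1837 and 1772 FPKM in the GV libraries and 159 FPKM at the 4-cell stage. The largest differences of single genes included Gtsf1, a piRNA pathway factor (504 and 274 FPKM in the GV libraries and 3.57 FPKM at the 4-cell stage), Txnip, a regulator of redox and glucose use (542 and 489 FPKM in the GV libraries and 13.1 FPKM at the 4-cell stage), and Cyb5, a cytochrome (143 and 102 FPKM in the GV libraries and 0.907 FPKM at the 4-cell stage, adjusted p = 0.0508). Rnaset2a, also among the 15 largest by the size rule, lies within a near-identical pair with Rnaset2b, and the sum of both was 305 and 116 FPKM in the GV libraries and 39.9 FPKM at the 4-cell stage.

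Other transcripts found in the oocyte stayed near their GV level, whether as stored messages or with new ones from the embryo, which was not tested. The 10 most abundant transcripts within 1.5-fold of both GV libraries were Trim61, Kpna2, Rbm38, Rpl39, Hspa8, Btg4, Gm1965, Dppa5a, Cdc42se2 and Rab7, with 4-cell values of 256 to 630.0 FPKM. Btg4, which recruits CCR4-NOT deadenylation to stored messages, was at 532 and 337 FPKM in the GV libraries and 440.5 FPKM at the 4-cell stage (0.06 ± 0.71, adjusted p = 0.965). In wild type it went from 406 and 362 FPKM to 30.4 FPKM. Rbm38, an RNA-binding protein, was at 518 and 502 FPKM in the GV libraries and 502 FPKM at the 4-cell stage; wild type went from 616 and 509 FPKM to 77.1 FPKM. Trim61 was at 526 and 738 FPKM in the GV libraries and 566 FPKM at the 4-cell stage, and at 43.5 FPKM in the wild-type 4-cell library; its model overlaps Trim60. Kpna2, a nuclear import receptor, was kept in both genotypes, with 4-cell values of 630.0 FPKM (YAP-null) and 655 FPKM (wild type). Hspa8 and Rpl39 were higher at the wild-type 4-cell stage. In wild type Hspa8 went from 434 and 454 FPKM to 1816 FPKM, and Rpl39 from 665 and 396 FPKM to 1178 FPKM. Of the 972 kept genes with a value in both genotypes, 52 were lower by 4-fold or more at the wild-type 4-cell stage and 6 higher by as much, fewer in both directions than the 18.9% and 19.8% of all genes. Dppa3 (Stella), a maternal protector of DNA methylation that the embryo also makes, was at 389 and 819 FPKM in the GV libraries and 1439.7 FPKM at the 4-cell stage; wild-type 4-cell embryos had 1625 FPKM.

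In the oocyte-specific Tcl1, Oas1, Oog and Nlrp clusters, some members stayed near their GV level and others were far lower. Of 23 members, 12 were at least 4-fold lower in YAP-null and 22 in wild type, with medians of -2.02 and -5.23. Of all genes, 12.3% and 18.9% were. Among the Tcl1 genes, a family of kinase cofactors, Tcl1b4 was at 109 and 58.5 FPKM in the GV libraries and 81.6 FPKM at the 4-cell stage, while in wild type it went from 79.3 and 51.9 FPKM to 0.741 FPKM (stage by genotype difference 5.26 ± 0.79, adjusted p = 0.286). Tcl1b3 was at 111 and 90.6 FPKM in the GV libraries and 168 FPKM at the 4-cell stage and at 4.37 FPKM in the wild-type 4-cell library (adjusted p of the difference = 0.136). Tcl1 itself was at 1125 and 561 FPKM in the GV libraries and 446 FPKM at the 4-cell stage, and at 11.3 FPKM in the wild-type 4-cell library. Bcl2l10, a death regulator of the BCL2 family, was at 2008 and 1227 FPKM in the GV libraries and 583 FPKM at the 4-cell stage. The last value is 36.0% of its mean GV FPKM, against 0.919% in wild type. Zbed3, of the subcortical complex, was at 2572 and 3065 FPKM in the GV libraries and 1137 FPKM at the 4-cell stage. Its 4-cell value was 40.3% of the mean GV FPKM, against 1.43% in wild type. Oas1c, Nlrp4b and Oog4 were among the lower members, at 26.9, 6.19 and 9.98 FPKM at the YAP-null 4-cell stage after 304 and 449, 192 and 153 and 230.4 and 303 FPKM in the GV libraries. In wild type, Nlrp4b went from 147 and 151 FPKM to 0.780 FPKM, and Oog4 from 214 and 285 FPKM to 1.18 FPKM. Among the mRNA decay genes, whose median was -0.14, the deadenylase Cnot6l was at 106 and 134 FPKM in the GV libraries and 36.4 FPKM at the 4-cell stage and at 3.72 FPKM in the wild-type 4-cell library. The decapping factor Dcp1a was at 144 and 149 FPKM in the GV libraries and 83.4 FPKM at the 4-cell stage, with 9.61 FPKM in wild-type 4-cell embryos. None of the stage by genotype differences of these genes passed the adjusted test.

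**Figure D3:**
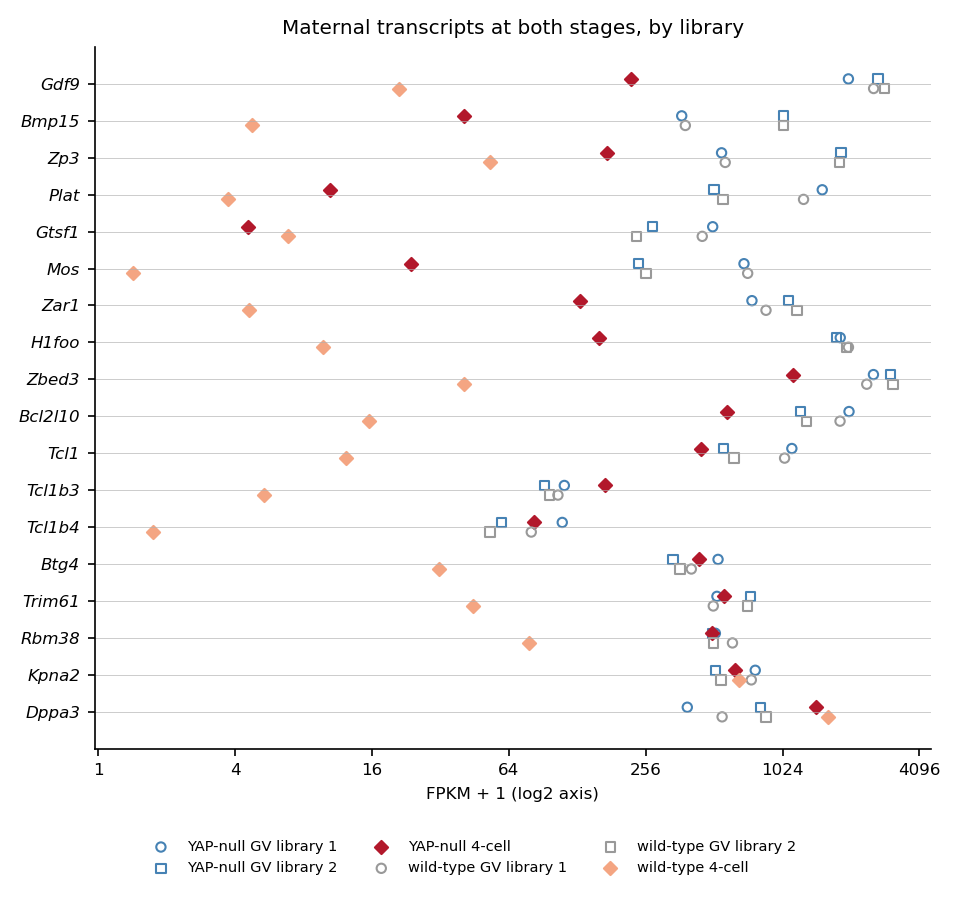
FPKM + 1 on a log2 axis for 18 maternal transcripts in all 6 libraries, open symbols for GV and filled diamonds for 4-cell. Wild-type 4-cell values (light) lie below the YAP-null ones (dark) for every gene shown except Gtsf1, Kpna2 and Dppa3, and for Btg4, Trim61, Rbm38 and Tcl1b4 the YAP-null 4-cell value lies between the YAP-null GV values or next to the lower one.

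Within the Hippo pathway, 1 of 19 tested genes rose and 5 were at least 4-fold higher, near the 5.0% and somewhat above the 17.3% of all genes. Of the 19, 8 were below 0, and the median of all 19 was 0.88 (1.54 and 0.16 against the single GV libraries). The 1 gene that rose was Tead4, the TEAD factor of the preimplantation embryo, from 0 and 0.0923 to 40.4 FPKM (5.31 ± 0.28, adjusted p = 0.0314). It reached 87.4 FPKM in wild type. Tead4 was near 0 in the oocyte and entered the test only through its 4-cell value, so its rise gives no support of its own. Wwtr1, which encodes the YAP paralogue TAZ, was at 2.50 and 1.57 FPKM in the GV libraries and 15.1 FPKM at the 4-cell stage and at 21.4 FPKM in the wild-type 4-cell library. The upstream regulator Nf2 was at 16.5 and 32.2 FPKM in the GV libraries and 116 FPKM at the 4-cell stage. The kinase gene Lats1 was at 0.604 and 0.766 FPKM in the GV libraries and 5.22 FPKM at the 4-cell stage. Of 14 genes known as YAP-TEAD targets in somatic cells, 6 were tested and 3 rose (5.0% of all genes did); these 3 were under 1 FPKM in both GV libraries and entered only through their 4-cell value. They were the transcription factor Myc from 0.147 and 0.230 to 16.8 FPKM, the adaptor Ajuba from 0 and 0.231 to 24.3 FPKM, and F3 (tissue factor) from 0 in both GV libraries to 4.78 FPKM. In wild type, Myc was at 26.7, Ajuba at 23.9 and F3 at 0.681 FPKM at the 4-cell stage. Tgfb2 of the same list was at 50.6 and 61.0 FPKM in the GV libraries and 6.05 FPKM at the 4-cell stage.

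The stage sets of the wild-type libraries were then read in the YAP-null libraries, which did not choose them. Of 2166 genes at least 4-fold lower in wild type (18.9% of 11451), 1141 (52.7%) were at least 4-fold lower in YAP-null, 709 were 2- to 4-fold lower and 316 (14.6%) less than 2-fold lower or higher. Over all 11451 genes these shares were 12.3% and 70.7% for the first and last. The medians were -2.07 in YAP-null and -2.87 in wild type. Of 2273 genes at least 4-fold higher in wild type (19.8%), 1683 (74.0%) were at least 4-fold higher in YAP-null, 469 were 2- to 4-fold higher and 121 (5.32%) less than 2-fold higher or lower, with medians of 2.68 and 2.95. Over all genes the first and last shares were 16.9% and 69.3%. A set chosen by its size in one genotype favours that genotype, so the reverse reading is given beside it. Of 1404 genes at least 4-fold lower in YAP-null, 1141 (81.3%) were so in wild type, and of 1931 at least 4-fold higher, 1684 (87.2%) were. The shared genes thus make up 52.7% of the wild-type and 81.3% of the YAP-null maternal set, and 74.0% and 87.2% of the zygotic sets.

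**Figure D4:**
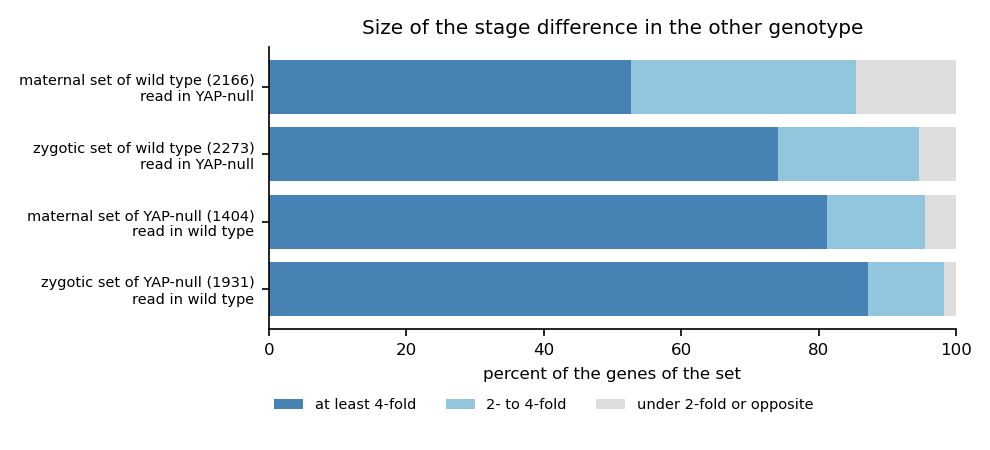
Bars give the percent of each stage set, chosen in the genotype named first, whose difference in the other genotype was at least 4-fold, 2- to 4-fold, or smaller or opposite. The maternal set of wild type read in YAP-null has the shortest dark part, 52.7%, and the zygotic set of YAP-null read in wild type the longest, 87.2%.

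The wild-type maternal set was also read by level in the oocyte. Its choice by size in wild type favours a larger wild-type difference at every level, and no reverse reading was made by level. Among genes of the wild-type maternal set with a mean of 100 FPKM or more over the 4 GV libraries, 197 of 328 (60.1%) were at least 4-fold lower in YAP-null, and the median was -2.35 against -4.15 in wild type. At 10 to 100 FPKM it was 723 of 1313 (55.1%), with medians of -2.14 and -3.09, and at 1 to 10 FPKM 221 of 525 (42.1%), with -1.84 and -2.36. The oocyte markers summed to 7558 and 9206 FPKM in the YAP-null GV libraries, 1438 FPKM in YAP-null embryos as against 155 FPKM in wild-type ones, and all 8 were above 0 in both. The part of unfertilised eggs or embryos arrested early in the higher YAP-null sum was not tested. The most abundant transcripts of the wild-type maternal set that were less than 2-fold lower in YAP-null, chosen after their values were seen, included Khdc1b (856 and 828 FPKM in the GV libraries and 1266 FPKM at the 4-cell stage, against 190.1 FPKM in wild type) and Spin1, a meiotic spindle protein (610.0 and 1741 FPKM in the GV libraries and 530.4 FPKM at the 4-cell stage, against 84.2 FPKM). On the zygotic side they included the chaperone Hspa8 (549.9 and 399 FPKM in the GV libraries and 589 FPKM at the 4-cell stage, against 1816 FPKM) and the ribosomal proteins Rpl4 and Rps28. Gulo, an enzyme of vitamin C synthesis, was at 12.6 and 13.4 FPKM in the GV libraries and 24.4 FPKM at the 4-cell stage, against 129 FPKM in wild type (stage by genotype difference -2.28, adjusted p = 0.296).

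By gene list, the YAP-null median lay nearer to 0 than the wild-type one for the lists of oocyte messages: -2.62 against -6.04 for the secreted and surface genes, -1.75 against -3.95 for the maternal-effect genes, -1.47 against -4.15 for the storage genes and -1.40 against -4.01 for the oocyte transcription factors. The distance was smaller for ribosome biogenesis, at 2.42 against 2.89, for ribosomal proteins, at 1.08 against 2.04, and for the 2-cell stage genes, at 3.16 against 3.04. Gene by gene, the change was lower in YAP-null for all 74 ribosomal proteins and 25 of 33 ribosome biogenesis genes, and higher for 16 of 22 of the 2-cell stage genes. The share of all genes that differed in either direction was not taken, so these counts have no baseline. All members share the same single 4-cell library of each genotype and are not replicates. These medians are descriptions, with no test of the difference.

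**Figure D5:**
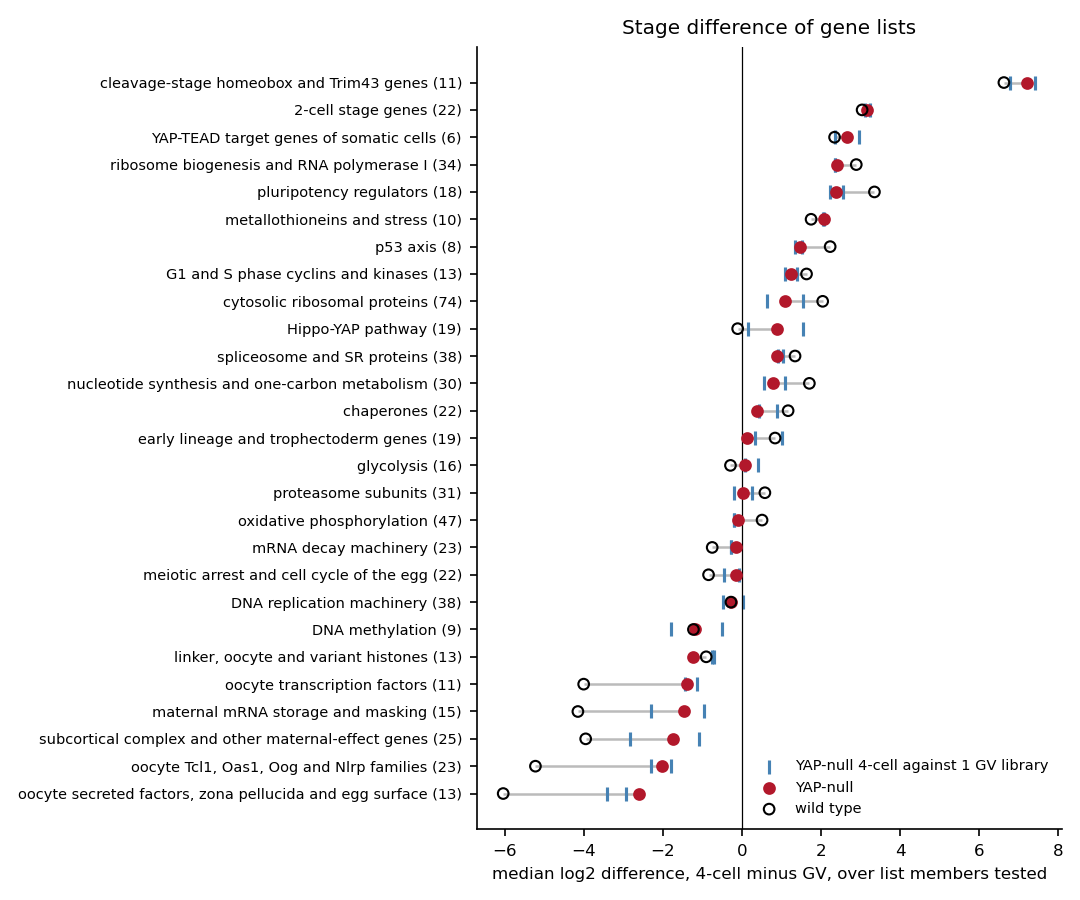
Filled points are YAP-null medians of the log2 difference (4-cell minus GV) over the tested members of each list, whose number is in brackets, blue ticks the same against each GV library alone, and open circles the wild-type medians. At the bottom, 5 lists of oocyte messages have wild-type medians of -3.95 to -6.04 and YAP-null medians of -1.40 to -2.62.

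The stage by genotype difference was tested with limma on all 6 libraries over 11451 genes. It passed for 18 genes (0.157%), 2 with a higher change in YAP-null (0.0175%) and 16 with a lower one (0.140%). At an unadjusted p of 0.05 there were 743 and 438. Leaving out any 1 GV library left 0 genes past the adjusted test. All 18 genes were under 1 FPKM in the 4 GV libraries, so that each rests on the 2 single 4-cell libraries. S100g, a calcium-binding protein, reached 8.64 FPKM in YAP-null embryos but 0.704 FPKM in wild-type ones. Lyz2, a lysozyme, Crip1 and Sycn were listed at 0 in the YAP-null 4-cell library and were at 9.59, 8.70 and 10.9 FPKM in the wild-type one. Of the 16, 5 have a near-identical copy: Cphx2 had 4-cell values of 0.0940 FPKM (YAP-null) and 121 FPKM (wild type), while Cphx1 and Cphx2 together were at 290.2 and 261 FPKM. Amd1 and Amd2 summed to 196 FPKM in both 4-cell libraries, Tmem254c and Tmem254b to 19.4 and 23.8 FPKM, Plac9a and Plac9b to 29.4 and 70.0 FPKM, and Hba-a1 and Hba-a2 to 25.9 and 52.3 FPKM. No maternal message passed: the largest differences, Tcl1b4, Bcl2l10, Tcl1 and Zar1, had adjusted p-values of 0.286, 0.286, 0.328 and 0.242.

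Features that the comparison did not use are given by group. The longest annotated transcript (GENCODE vM21) had a median of 2452 bases in the genes that rose, 2944 in those at least 4-fold higher, 2914 in those at least 4-fold lower, 3195 in the kept genes and 3233 in all genes tested, and its median GC content was 51.8%, 50.1%, 49.7%, 48.9% and 49.6%. Of the genes that rose, 33 of 570 (5.79%) were X-linked, against 78 of the 1970 at least 4-fold higher (3.96%), 373 of all 11392 tested (3.27%) and 44 of the 1404 lower genes (3.13%).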

How the data were processed

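RNA from 6 libraries of 60 mouse oocytes or embryos each was sequenced in paired-end mode. The authors deposited FPKM per gene model with lower and upper bounds; the submitters' processing notes name CASAVA 1.8, TopHat and mm9, and for the program that gave FPKM and its annotation, no source used here gives a name. FPKM was summed per gene symbol, a gene was kept where its mean over the libraries of a fit reached 1 FPKM, and log2(FPKM + 1) was tested with limma 3.58.1 in R 4.3.3 (limma-trend, two-sided, Benjamini-Hochberg); fold changes on this scale understate those of low genes. The stage difference used the 3 YAP-null libraries and the stage by genotype difference all 6. On simulated data with 200 of 11392 genes changed, the stage test recovered 90% of changes of 6, 26% of 4 and 2% of 2 on the log2 scale, and 13.2% of its calls were false, above the nominal 5%. With 40% of genes changed, it recovered 99.1% of changes of 6, 95.3% of 4 and 45.6% of 2. There 2.85% of calls were false, and 3 of 2262 changes of 4 or more had the wrong sign, none of them called. The simulated 4-cell library was drawn with the spread of the GV libraries, which the fit also assumes. These shares therefore do not test that assumption for the real 4-cell library. Recovery of the stage by genotype difference was 10% for changes of 6, with 0 false calls.

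Named genes were the 15 largest differences in each direction among genes reaching 10 FPKM, the 10 most abundant kept genes, the largest stage by genotype differences and list members. The members and lists were chosen with earlier results of these data known. Sums over near-identical or overlapping genes, bins of oocyte level, transcript features, promoter motifs and the named genes that moved less than 2-fold were chosen after seeing the data. Alternatives covered pseudocounts, filters, scaling, fold thresholds, the prior, single libraries left out and a replicate block. Read totals are unknown; the deposited bounds lay at a median of 8.32% to 13.4% of the value from their midpoint by library, over 1880 genes of middle level, and how they were computed is not stated.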

Additional observations from a re-analysis of the deposited data

Results flagged for a closer look

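The change from GV oocyte to 4-cell embryo differed between the genotypes past the adjusted limma threshold for 18 genes, given here as the log2 change in YAP-null minus that in wild type. Rn4.5s, a small RNA gene, had 7.27 (153 FPKM in the YAP-null 4-cell library, listed at 0 in the other 5), and S100g 2.50. The other 16 were lower in YAP-null. Those with a near-identical copy were Cphx2 at -6.73, Amd1 at -5.62, Plac9a at -5.52, Hba-a2 at -4.62 and Tmem254c at -2.99. Genes listed at 0 in all 3 YAP-null libraries were Ckmt1 at -4.07, the phosphodiesterase Smpdl3a at -3.77, Sycn at -3.57, the prolactin family gene Prl3b1 at -3.50, Lyz2 at -3.40, Crip1 at -3.28, 4930444P10Rik at -3.27, Gm7861 at -3.24, 0610005C13Rik at -2.88 and 2610019E17Rik at -2.88. U05342, near 0 in every YAP-null library while wild-type 4-cell embryos had 6.12 FPKM, differed by -2.77. The adjusted p-values were 0.02 to 0.0487. Each of these values rests on 1 4-cell library per genotype, and none passed once a GV library was left out.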

How the results depend on the processing

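The number of genes past limma and their split between higher and lower both depended strongly on the setting. For the YAP-null stage difference, 570 rose and 1 fell; the counts were 413 and 166 with a pseudocount of 0.1, 741 and 0 with 5, 649 and 279 at a mean of 5 FPKM, 0 and 0 with no filter (3065 and 1991 at an unadjusted p of 0.05), 389 and 11 after rescaling to one sum, 627 and 0 with median ratios, 519 and 4 with quantiles, 1896 and 1401 with all 6 libraries, and 0 and 0 with a robust prior (2168 and 1731 unadjusted). Without either GV library they ranged from 0 to 0. With the replicate number as a block over 6 libraries they were 3938 and 3812; the labels do not say that a number marks a shared animal or day. By size, 1970 and 1404 genes became 969 and 552 with a pseudocount of 5, 3513 and 3333 at 2-fold and 930 and 423 at 8-fold. For the stage by genotype difference, 2 and 16 became 8 and 19 with a pseudocount of 0.1, 1 and 3 at 5 FPKM, 408 and 856 with no filter, 7 and 17 after rescaling, 5 and 19 with median ratios, 3 and 23 with quantiles, 0 and 0 with the replicate block (2309 and 1407 unadjusted), and ranged from 0 to 0 without any 1 GV library. With the maternal set chosen and read at 8-fold, 31.9% were at least 8-fold lower in YAP-null; the 4-fold share was 81.3% in the reverse reading and, chosen after seeing the data, 69.5% for the set at 8-fold. The maternal share under 2-fold was 7.14% for the set at 8-fold and 4.56% in reverse; the zygotic share under 2-fold was 2.81% at 5 FPKM, from 6.62% to 8.27% with 1 GV library left out, 2.45% at 8-fold and 1.76% in reverse. In sums chosen after seeing the data, Rpl26 with Gm15772 had a stage difference of 0.80 in place of -6.28, and the stage by genotype difference of Cphx2 was 0.48 with Cphx1 and that of Amd1 0.0162 with Amd2. The cause of these shifts was not tested. Quantile scaling moved the median of all genes to -0.17. Among single genes, 2724 of the repeat values were counted as the same, 418 newly passed, 162 no longer passed and 292 moved. For genes past limma, the same meant an unchanged direction and call. For the others it meant a shift within the standard deviation of the GV libraries, and the direction was not checked. Read totals are unknown, and genes near 0 FPKM are the least certain.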
